A study of Mus musculus with 24 samples.

Results

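The miR-181 family of microRNAs (miRNAs) consists in the mouse of miR-181a, miR-181b, miR-181c and miR-181d. Its members were taken by name from a table of small RNA sequencing counts, where they are listed as mir-181a, mir-181b, mir-181c and mir-181d, 4 of 510 miRNAs. All 4 were counted in each of the 24 libraries and were among the 237 miRNAs with enough counts to be tested, while 364 miRNAs had at least 1 count. The libraries came from mammary tumors of F1 female PyMT mice, heterozygous for the MMTV-PyMT transgene on the FVB strain, and from normal mammary glands of age-matched FVB females without the transgene. In this model the MMTV promoter, active mainly in mammary epithelium, drives the polyoma middle T oncogene. Tumors were collected at hyperplasia (week 6), adenoma or mammary intraepithelial neoplasia (week 8), early carcinoma (week 10) and late carcinoma (week 12), with 3 tumors and 3 normal glands at each week.

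A miRNA binds messenger RNAs mainly through its seed, the stretch near its 5′ end, and lowers their translation and stability, so miRNAs with the same seed share many predicted targets. The miR-181 family is best known from lymphocytes, where miR-181a raises the sensitivity of T-cell receptor signalling during development in the thymus. It is also expressed in many other tissues, including epithelia.

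The mature 5p sequences are shown because they define the family and set how well its members can be told apart in short reads. They are RefSeq sequences (GRCm38.p6), written 5′ to 3′ with the seed, bases 2 to 8, in capitals.
miR-181a-5p: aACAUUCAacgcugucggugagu
miR-181b-5p: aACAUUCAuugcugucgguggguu
miR-181c-5p: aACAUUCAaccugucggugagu
miR-181d-5p: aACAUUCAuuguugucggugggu

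The seed was identical in all 4 and was found in no other of the 1679 mature mouse miRNA names in the RefSeq table. The sequences fell into 2 pairs. With positions counted from 1 at the 5′ end, miR-181d differed from miR-181b over their shared length by the single substitution C12U, and miR-181b was 1 base longer. Removing base 11 of miR-181a gave miR-181c. Between miR-181a and miR-181b the substitutions were A9U, C10U and A21G. The longest run of bases shared by any pair was 12, between miR-181a and miR-181c. How many mismatches the alignment allowed is not given in the sources used here, so reads of these near-identical miRNAs may have been shared between entries, and the split between miR-181b and miR-181d is uncertain in this respect.

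The genes of the family lie in 3 clusters, and the sequence pairs are not the cluster pairs. On mm9, with its GENCODE annotation, Mir181a-1 (chr1:139863032-139863118) and Mir181b-1 (chr1:139863216-139863295) were 97 bases apart on the plus strand and overlapped no other annotated gene. Mir181a-2 (chr2:38708255-38708330) and Mir181b-2 (chr2:38709350-38709438) were 1019 bases apart on the plus strand, within an intron of Nr6a1, which runs on the opposite strand. Mir181c (chr8:86702762-86702867) and Mir181d (chr8:86702615-86702686) were 75 bases apart on the minus strand, outside other annotated genes. The mature miR-181a and miR-181b sequences each had 2 exact copies in the genome, those of miR-181c and miR-181d 1 each, and each copy lay in a hairpin of its own name. The table holds 1 entry each for miR-181a and miR-181b, so the chromosome 1 and chromosome 2 copies cannot be told apart, nor can the 5p and 3p arms of any member.

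Normal libraries held between 1626022 and 3931375 counts in all and tumor libraries between 1032241 and 2213972. Single libraries held 3738 to 10849 counts of miR-181a, 888 to 3236 of miR-181b, 1200 to 4084 of miR-181c and 548 to 3466 of miR-181d, far above the floor of 3 counts. Together the members took 0.270% to 0.596% of the counts in normal glands and 0.584% to 0.935% in tumors. The most abundant member was miR-181a, with 45.9% to 68.4% of family counts in normal glands and 51.5% to 64.6% in tumors. By mean level miR-181a ranked 51 in normal glands and 33 in tumors among the 510 listed miRNAs, miR-181c 74 and 60, miR-181d 80 and 73, and miR-181b 82 and 72.

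The family was more abundant in tumors at every week. Levels of the members are given as counts-per-million (CPM) of the library size after TMM scaling. The summed family level was 4591 ± 695 CPM in normal glands and 6707 ± 700 CPM in tumors at week 6 (mean ± SD, n = 3 each here and for the other weeks). At week 8 it was 4026 ± 785 and 8035 ± 680 CPM. At week 10 it was 4293 ± 625 and 8551 ± 400 CPM, and at week 12 it was 3497 ± 144 and 8066 ± 764 CPM. The tumor and normal ranges of the sum did not overlap at any of the 4 weeks. In bulk tissue, a change in the share of cells that carry a miRNA and a change in its amount per cell cannot be told apart.

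**Figure D1:**
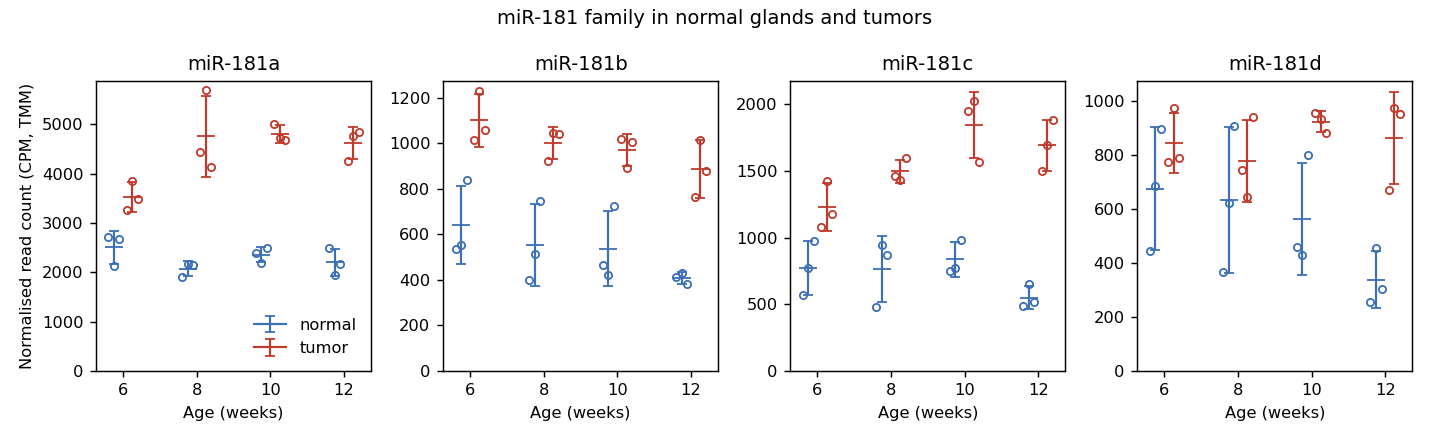
Level of each miR-181 family member in CPM (vertical axes, 1 scale per member) against age in weeks, with open points for libraries and bars for the mean ± SD of 3 normal (blue) or 3 tumor (red) libraries. All 12 tumor libraries lie above all 12 normal libraries for miR-181a and miR-181c, whereas the groups overlap for miR-181d at weeks 6 and 8.

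Of the 4 members, 3 rose in tumors at weeks 6 and 8, 4 rose at weeks 10 and 12, and none fell (edgeR's quasi-likelihood test, adjusted p below 0.05). With same-numbered libraries as pairs (replicate block), 2 rose at week 6, where miR-181a did not pass (adjusted p = 0.0609 in edgeR). The shares of all 237 tested miRNAs that rose were 29.1%, 21.9%, 32.9% and 29.1% for weeks 6, 8, 10 and 12 in turn, and the shares that fell were 29.5%, 13.5%, 27.4% and 21.5%. All 3 tumor libraries lay above all 3 normal libraries for 3, 3, 4 and 4 members in the same order of weeks, beside 34.2%, 32.1%, 36.3% and 33.3% of the tested miRNAs. For the members the medians of the log2 fold change were 0.59, 0.90, 0.94 and 1.23 in that order, beside -0.12, -0.09, -0.15 and -0.19 over all tested miRNAs. Without the block, miR-181a, miR-181b and miR-181c rose at all 4 weeks, as 18.6% of the tested miRNAs did. Their tumor libraries stood above the normal libraries at every week, which held for 24.1% of the tested miRNAs.

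miR-181a, the member with the thymic role described above, had its smallest fold change at week 6. Its level at week 6 was 2714, 2119 and 2677 CPM in normal replicates 1, 2 and 3 and 3257, 3852 and 3489 CPM in tumor replicates 1, 2 and 3. At week 8 the normal glands held 1909, 2171 and 2146 CPM and the tumors 4431, 5691 and 4146 CPM, with tumor replicate 2 the highest of all libraries. At week 10 the values were 2394, 2188 and 2488 CPM in normal glands and 5013, 4729 and 4684 CPM in tumors. At week 12 they were 2496, 1945 and 2160 CPM in normal glands and 4256, 4770 and 4841 CPM in tumors. The lowest tumor library of any week, at 3257 CPM, exceeded the highest normal library, at 2714 CPM.

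The log2 fold change of miR-181a was 0.50 (SE 0.16, adjusted p = 0.0277) at week 6, a 1.41-fold difference, by edgeR's quasi-likelihood test, Benjamini-Hochberg adjusted over all tested miRNAs. It was 1.17 (SE 0.20, adjusted p = 0.00448) at week 8, 1.02 (SE 0.11, adjusted p = 4.65e-04) at week 10 and 1.06 (SE 0.20, adjusted p = 0.00420) at week 12, or 2.24-, 2.03- and 2.08-fold. With the same-numbered tumor and normal libraries of week 6 as pairs (replicate block), the log2 fold change was again 0.50 (SE 0.20) but the adjusted p was 0.0609, within a range of 0.00613 to 0.106 over the other settings. The week 6 call was also lost without tumor replicate 1 (adjusted p = 0.0526), tumor replicate 2 (0.0850) or normal replicate 2 (0.103) in edgeR, whereas those of the later weeks held without any 1 library.

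miR-181b, which shares both of its clusters with miR-181a, rose at all 4 weeks, by 1.72-fold to 2.15-fold. At week 6 it was at 535, 551 and 839 CPM in normal replicates 1, 2 and 3 and at 1013, 1230 and 1057 CPM in the tumors. Normal replicate 3 was the highest normal library at weeks 6, 8 and 10, with 839, 747 and 724 CPM, while the other normal libraries of those weeks held 397 to 551 CPM. The tumors held 921, 1044 and 1041 CPM at week 8 and 1018, 890 and 1004 CPM at week 10. At week 12 the normal glands were close together, at 414, 431 and 380 CPM, and the tumors at 762, 1016 and 879 CPM.

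The log2 fold changes of miR-181b were 0.78 (SE 0.22, adjusted p = 0.0209), 0.84 (SE 0.27, adjusted p = 0.0453), 0.85 (SE 0.21, adjusted p = 0.0114) and 1.11 (SE 0.20, adjusted p = 0.00359) at weeks 6, 8, 10 and 12 in edgeR, or 1.72-, 1.78-, 1.81- and 2.15-fold. Only 1 of 12 tumor libraries, at 762 CPM in week 12, lay within the range of the 12 normal libraries. The week 6 call was lost without tumor replicate 2 (adjusted p = 0.0774) or normal replicate 2 (0.0657) in edgeR. The week 8 call was held without normal replicate 3 alone, and was lost without tumor replicates 1, 2 or 3 (adjusted p = 0.102, 0.108 and 0.0644) or normal replicates 1 or 2 (0.0780 and 0.128).

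miR-181c showed the largest difference of the family, at week 12. The normal glands of week 12 held 483, 650 and 517 CPM and the tumors 1499, 1696 and 1885 CPM. At week 6 the values were 567, 769 and 974 CPM in normal glands and 1082, 1427 and 1176 CPM in tumors. At week 8 they were 481, 942 and 873 CPM in normal glands and 1466, 1435 and 1597 CPM in tumors. The tumor level was highest at week 10, with 1948, 2028 and 1566 CPM beside 750, 771 and 986 CPM in normal glands. No tumor library of any week, the lowest at 1082 CPM, reached down to the highest normal library, at 986 CPM.

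The log2 fold changes of miR-181c were 0.68 (SE 0.24, adjusted p = 0.0407), 0.96 (SE 0.26, adjusted p = 0.0270), 1.14 (SE 0.17, adjusted p = 0.00149) and 1.62 (SE 0.20, adjusted p = 7.73e-04) at weeks 6, 8, 10 and 12 in edgeR. These correspond to 1.60-, 1.94-, 2.20- and 3.07-fold. The week 6 call was lost without tumor replicates 1 or 2 (adjusted p = 0.0627 and 0.117) or normal replicates 1 or 2 (0.0736 and 0.0899) in edgeR. The week 8 call was lost without tumor replicates 1 or 2 (adjusted p = 0.0735 and 0.0662) or normal replicate 3 (0.0525).

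miR-181d, the neighbour of miR-181c, rose at weeks 10 and 12 and did not pass the test at weeks 6 and 8. At week 6 the normal glands held 443, 685 and 899 CPM and the tumors 773, 975 and 791 CPM. At week 8 the normal glands held 367, 621 and 909 CPM and the tumors 744, 644 and 944 CPM. At both weeks normal replicate 3 lay above at least 1 tumor and the groups overlapped. At week 10 the normal glands held 459, 430 and 801 CPM and the tumors 955, 936 and 882 CPM, without overlap. At week 12 the normal glands held 254, 456 and 304 CPM, the lowest mean of any group, and the tumors 669, 975 and 952 CPM.

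The log2 fold changes of miR-181d were 0.33 (SE 0.27, adjusted p = 0.310), 0.28 (SE 0.34, adjusted p = 0.501), 0.71 (SE 0.24, adjusted p = 0.0346) and 1.36 (SE 0.27, adjusted p = 0.00557) at weeks 6, 8, 10 and 12 in edgeR, or 1.25-, 1.22-, 1.64- and 2.56-fold. Over all weeks, 6 of 12 tumor libraries exceeded every normal library. The week 10 call was held without normal replicate 3 alone. It was lost without tumor replicates 1, 2 or 3 (adjusted p = 0.0884, 0.0905 and 0.0613) or normal replicates 1 or 2 (0.0894 and 0.119) in edgeR, while the week 12 call held without any 1 library.

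**Figure D2:**
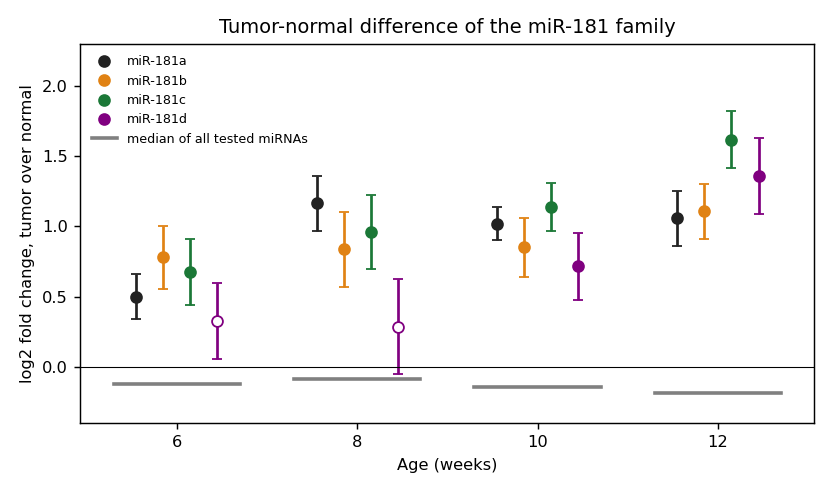
Log2 fold change of each miR-181 family member in tumors against normal glands at weeks 6, 8, 10 and 12, with bars of 1 SE, filled points for values that passed the edgeR test, open points for those that did not, and grey lines for the median of all 237 tested miRNAs. Every value is above 0, from 0.28 for miR-181d at week 8 to 1.62 for miR-181c at week 12.

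The order of the 8 groups by mean level differed between members. For miR-181a it ran from tumors of week 10 (4809 ± 178 CPM) through those of week 8 (4756 ± 822), week 12 (4622 ± 319) and week 6 (3532 ± 300) to normal glands of week 6 (2503 ± 333), week 10 (2357 ± 153), week 12 (2200 ± 278) and week 8 (2075 ± 145). Neighbours in this order overlapped except around the week 6 tumors, which lay below the other tumors and above the normal glands. For miR-181c the order was tumors of week 10 (1847 ± 247 CPM), week 12 (1693 ± 193), week 8 (1500 ± 86) and week 6 (1228 ± 179), then normal glands of week 10 (836 ± 130), week 6 (770 ± 204), week 8 (766 ± 248) and week 12 (550 ± 88). Its week 6 tumors were again separate from both neighbours, although by only 8.12 CPM from the week 8 tumors.

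For miR-181b the highest mean was in the earliest tumors. The order was tumors of week 6 (1100 ± 115 CPM), week 8 (1002 ± 70), week 10 (971 ± 70) and week 12 (885 ± 127), then normal glands of week 6 (642 ± 171), week 8 (553 ± 179), week 10 (537 ± 164) and week 12 (409 ± 26). For miR-181d it was tumors of week 10 (925 ± 38 CPM), week 12 (865 ± 170), week 6 (846 ± 112) and week 8 (777 ± 152), then normal glands of week 6 (676 ± 228), week 8 (633 ± 271), week 10 (563 ± 206) and week 12 (338 ± 105). Every pair of neighbours in the orders of miR-181b and miR-181d overlapped.

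Whether the tumor-normal difference changed with stage was tested in a fit of all 24 libraries. From week 6 to week 12 the log2 difference increased by 0.57 for miR-181a (SE 0.20, 95% interval 0.19 to 0.96), 0.95 for miR-181c (SE 0.32, 0.32 to 1.58) and 1.03 for miR-181d (SE 0.45, 0.15 to 1.91), and by 0.34 for miR-181b (SE 0.32, -0.30 to 0.97). The adjusted p values were 0.229, 0.229, 0.326 and 0.538 for miR-181a, miR-181c, miR-181d and miR-181b in edgeR, so that no member passed. This contrast called 0.422% of all tested miRNAs, and 13.1% had an unadjusted p under 0.05, among them miR-181a (unadjusted p = 0.00871), miR-181c (0.00805) and miR-181d (0.0330) in edgeR. Over all 4 weeks together no miRNA passed (0 of 237 or 0%, with 9 or 3.8% at an unadjusted p under 0.05), and the members had adjusted p values of 0.493 to 0.971 in edgeR. The later calls of miR-181d are therefore not shown to differ from its weeks 6 and 8.

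Within genotypes, the changes from week 6 to week 12 that passed the test were in normal glands. There miR-181b fell by 0.65 on the log2 scale (SE 0.23, adjusted p = 0.0491) and miR-181d fell by 1.00 (SE 0.32, adjusted p = 0.0302) in edgeR, in a contrast that called 21.1% of tested miRNAs. The corresponding values were -0.49 for miR-181c (adjusted p = 0.146) and -0.19 for miR-181a (adjusted p = 0.384) in edgeR. In tumors the week 12 minus week 6 values were 0.39 for miR-181a (adjusted p = 0.0862), 0.46 for miR-181c (adjusted p = 0.205), 0.03 for miR-181d (adjusted p = 0.962) and -0.31 for miR-181b (adjusted p = 0.393), where 7.59% of tested miRNAs were called by edgeR. The falls in normal glands rested on normal replicate 3, the highest normal library for these members at week 6: without it they were -0.32 for miR-181b (adjusted p = 0.313) and -0.62 for miR-181d (adjusted p = 0.213) in edgeR. The call of miR-181b was also lost without any other replicate (adjusted p 0.0552 to 0.0931 in edgeR). That of miR-181d was also lost without tumor replicates 1, 2 or 3 (adjusted p 0.0610 to 0.0682 in edgeR). Why leaving out a tumor replicate lost calls in normal glands was not tested.

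**Figure D3:**
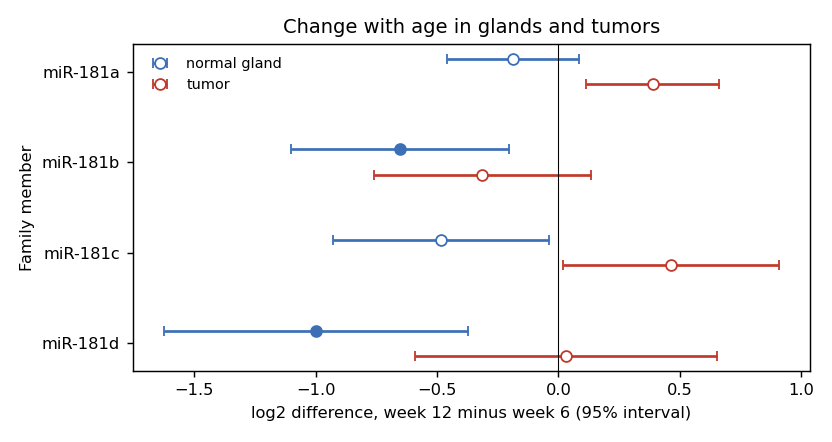
Week 12 minus week 6 log2 difference of each miR-181 family member within normal glands (blue) and within tumors (red), from the fit of all 24 libraries. Bars are 95% normal intervals from the SE, and filled points are values that passed the edgeR test. The normal-gland values are all below 0, with -0.19 for miR-181a nearest to it and miR-181d farthest, while the tumor values lie between -0.31 and 0.46.

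The members were compared with each other by the ratio of their counts in each library, which needs no scaling between libraries. The ratio of miR-181c to miR-181d, neighbours in one cluster, was higher in tumors. Its geometric mean was 1.38 in normal glands and 1.83 in tumors, a log2 difference of 0.40 (SE 0.085, 1.32-fold). An exact two-sided permutation test with labels exchanged within weeks gave p = 7.5e-05, or 4.5e-04 adjusted over the 6 pairs of members, and the ratio was higher in the tumor in 12 of 12 same-numbered pairs. At week 6 it was 1.28, 1.12 and 1.08 in normal replicates 1, 2 and 3 and 1.40, 1.46 and 1.49 in the tumors. At week 8 it was 1.31, 1.52 and 0.960 in normal glands and 1.97, 2.23 and 1.69 in tumors, again without overlap. The groups overlapped at week 10, with 1.64, 1.80 and 1.23 in normal glands and 2.04, 2.17 and 1.77 in tumors, and at week 12, with 1.90, 1.43 and 1.70 in normal glands and 2.24, 1.74 and 1.98 in tumors. The log2 difference was 0.35 within sequencing lane 1 and 0.48 within lane 2, and was above 0 at 4 of 4 weeks in each lane.

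The other pairs did not pass as means over the weeks, and some of their values differed in sign between weeks. The log2 difference of the ratio of miR-181a to miR-181b, which share 2 clusters, was 0.02 (SE 0.10, adjusted p = 0.851, exact permutation test). For miR-181b to miR-181d, the near-identical pair, it was 0.20 (SE 0.094, adjusted p = 0.177, exact permutation test), and for miR-181b to miR-181c it was -0.20 (SE 0.088, adjusted p = 0.166, exact permutation test). For miR-181a to miR-181c it was -0.18 (SE 0.12, adjusted p = 0.271, exact permutation test), and for miR-181a to miR-181d it was 0.22 (SE 0.18, adjusted p = 0.302, exact permutation test). By week, the ratio of miR-181b to miR-181d was higher in all tumors than in all normal glands at weeks 6 and 8, with log2 differences of 0.43 and 0.53, and overlapped with 0.12 at week 10 and -0.27 at week 12. At week 12 the ratios of miR-181a and miR-181b to miR-181c were lower in all tumors than in all normal glands, with log2 differences of -0.55 and -0.52. The groups overlapped in all other weeks of these 5 pairs, and the differences between weeks were not tested. In exact permutation tests without normal replicate 1, the values of miR-181a to miR-181d and of miR-181b to miR-181d were 0.48 and 0.33, each with adjusted p = 0.0170. Without normal replicate 2 that of miR-181b to miR-181c was -0.32 (adjusted p = 0.0066, exact permutation test).

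**Figure D4:**
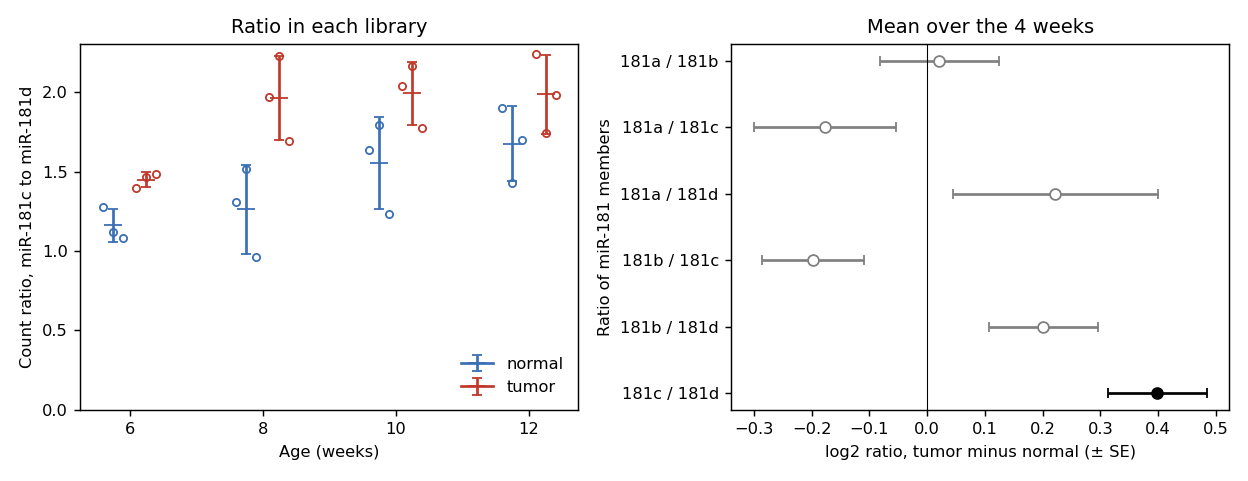
Left, count ratio of miR-181c to miR-181d in each library against age in weeks, with bars for the mean ± SD of 3 normal (blue) or 3 tumor (red) libraries; right, the tumor minus normal log2 difference of the count ratio for the 6 pairs of members, averaged over weeks, with bars of 1 SE. The tumor mean is above the normal mean at all 4 weeks, and the pair of miR-181c and miR-181d, the filled point at 0.40, alone passed the exact permutation test.

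Across the 24 libraries, the log2 CPM values of miR-181c and miR-181d had a Pearson correlation of 0.86, which was 0.88 once the mean of each group was removed. For miR-181b and miR-181d these values were 0.88 and 0.84, and for miR-181b and miR-181c 0.87 and 0.70. The correlations of miR-181a with the other members were 0.83 with miR-181b, 0.89 with miR-181c and 0.62 with miR-181d over all libraries, but 0.42, 0.15 and -0.0049 within groups. Within groups, libraries high in miR-181d thus tended to be high in miR-181b and miR-181c, without such a relation to miR-181a. These are descriptions of 24 points that share libraries and their depth, and reads misassigned between near-identical members would enter them.

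The tested miRNAs closest to each member over the 24 libraries, out of 233, were found by their Pearson correlation. For miR-181a they were miR-27b (Pearson r = 0.96, and 0.76 within groups), miR-31 (0.95 and 0.45) and miR-182 (0.95 and 0.48). For miR-181b they were miR-18a (0.94 and 0.76), miR-17 (0.93 and 0.74) and miR-183 (0.92 and 0.76). For miR-181c they were miR-187 (0.95 and 0.77), miR-183 (0.94 and 0.85) and miR-17 (0.93 and 0.85). For miR-181d they were miR-93 (0.91 and 0.88), miR-20a (0.90 and 0.87) and miR-18a (0.89 and 0.86). Among these, miR-17, miR-18a and miR-20a come from one precursor transcript, the miR-17-92 cluster, which is known as oncogenic in lymphocytes.

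miRNAs with known roles in lymphocyte development alongside miR-181 were listed as its companions: miR-150, miR-155, miR-142 and 6 members of the miR-17-92 cluster. Of these 9, 5 rose at week 6, 3 at week 8 and 6 at both later weeks, and 1, miR-150, fell at every week. Those that rose belonged to the miR-17-92 cluster, such as miR-92a, whose log2 fold change was 1.30, 1.09, 1.22 and 1.25 in the order of the weeks, and miR-18a, with 2.49 at week 12. miR-150, which is abundant in mature lymphocytes, had values of -0.77, -2.29, -2.66 and -2.58. The median of the list was 1.15, 1.06, 1.22 and 1.25.

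No leukocyte miRNA passed the test as higher in tumors. Of the 4 tested of 5 listed, 1 fell at weeks 6 and 8 (miR-150) and 2 at weeks 10 and 12 (miR-150 and miR-146a). Of the leukocyte markers, miR-142, found in most blood cells, had log2 fold changes between -0.02 and -0.29 that did not pass. The log2 fold changes of miR-155 were 0.23, 0.46, 0.19 and -0.24 at weeks 6, 8, 10 and 12, and none passed. miR-223 of myeloid cells is listed at 0 in all 24 libraries. Why it had no counts was not tested, so it gives no reading of myeloid cells here. The summed leukocyte list was 3462 to 5826 CPM in normal glands and 2118 to 3495 CPM in tumors. Sums of lists, here and below, are CPM of all counts without TMM scaling, unlike the levels of the members. Whether leukocytes contributed to the levels of miR-181 was not tested.

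Of the epithelial miRNAs, those of the miR-200 family rose in tumors together with the miR-181 family. Of 7 listed, 5 rose at every week: the miR-200 family members miR-200a, miR-200b, miR-200c, miR-141 and miR-429, which maintain the epithelial state, with log2 fold changes of 1.48 to 2.88. The log2 fold changes of miR-203 were -0.40, -0.31, -0.26 and -1.87 at weeks 6, 8, 10 and 12, and only that of week 12 passed. Those of miR-205 were -0.01, 0.53, 0.29 and 0.41, and none passed. The summed level of the list was 4575 to 21364 CPM in normal glands (median 9180) and 20271 to 31779 CPM in tumors (median 26064). The value of 21364 CPM was normal replicate 2 of week 12, and every other normal library held at most 12219 CPM. The defining markers miR-200c and miR-141 were present in every library, with at least 190 counts. Within weeks, the normal library with the highest epithelial sum also had the highest miR-181b and miR-181d at 4 of 4 weeks, the highest miR-181c at 3 and the highest miR-181a at 1. At week 12 that library was normal replicate 2. In tumors this was so at 2 weeks for miR-181a, miR-181b and miR-181d and at 1 for miR-181c. The part of epithelial content in the differences of miR-181 was not tested.

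Smooth muscle, fibroblast and endothelial miRNAs fell in tumors throughout. Both smooth muscle and myoepithelial miRNAs (miR-143 and miR-145), all 3 fibroblast miRNAs (miR-199a, miR-199b and miR-214) and the endothelial miR-126 fell at each of the 4 weeks. The smooth muscle sum was 156344 to 247924 CPM in normal glands and 54427 to 118517 CPM in tumors, that of fibroblasts 13164 to 16924 and 3870 to 8230 CPM, and that of the endothelial miR-126 20737 to 35529 and 5412 to 18709 CPM. Of the 3 tested of 4 skeletal muscle miRNAs, none fell at weeks 6 and 10, 1 at week 8 and 3 at week 12, with sums of 96.5 to 94977 CPM in normal glands and 40.7 to 17251 CPM in tumors. Among normal libraries this sum was 94977 and 32568 CPM in replicates 1 and 2 of week 6. It was 45963 CPM in replicate 3 of week 10, 75520 CPM in replicate 1 of week 12 and at most 2614 CPM elsewhere. The highest tumor sums were 17251 CPM in replicate 1 of week 6 and 16568 CPM in replicate 3 of week 10. Of 3 erythroid miRNAs, 1, 0, 1 and 3 fell at weeks 6, 8, 10 and 12, with sums of 8237 to 37513 CPM in normal glands and 1697 to 13053 CPM in tumors. Of 3 adipocyte miRNAs, 1 rose at week 6 and 1 fell at weeks 10 and 12, with sums of 4994 to 27296 and 2510 to 15456 CPM. Their part in the differences of miR-181 was not tested.

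Each group had libraries on both sequencing lanes. The tumor minus normal difference in log2 CPM, averaged over weeks, was 0.93 in lane 1 and 0.89 in lane 2 for miR-181a, 1.04 and 0.70 for miR-181b, 1.26 and 0.95 for miR-181c, and 0.91 and 0.47 for miR-181d. It was above 0 at 4 of 4 weeks in both lanes for each member, except for miR-181d in lane 2, where it was above 0 at 3 of 4 weeks and reached -0.18.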

How the data were processed

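Small RNA libraries (Illumina TruSeq) were made from total RNA of snap-frozen mammary tissue, 3 mice per group and 8 groups. The authors trimmed reads, aligned those of mature miRNA length with Bowtie (version not given in the sources used here) and deposited raw counts per miRNA, as reads overlapping more of a miRBase miRNA than not. The study names mm10 and the library labels mm9, and coordinates are given on mm9 alone, with none converted between builds. The mature sequences come from a RefSeq table of GRCm38.p6 and were placed on mm9 by exact match. The median depth was 2964452 counts in normal and 1690296 in tumor libraries, with overlapping ranges. Before TMM, the floor of 3 counts was 0.763 to 1.84 CPM for normal and 1.36 to 2.91 CPM for tumor libraries, and it covers counting error only. No pair of libraries of a group agreed within sampling noise.

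Groups, weeks, lanes and replicate numbers came from the sample labels. The family members and the lists of companion and cell type miRNAs were chosen with earlier results of these data known. miRNAs named besides the members were the 3 most correlated with each member and the miRNAs of the lists. Counts were tested with edgeR 4.0.16 (R 4.3.3) at each week, after filterByExpr over the 8 groups (237 miRNAs) and TMM, with the quasi-likelihood test at 0.05 after Benjamini-Hochberg adjustment over all tested miRNAs. Changes between weeks were contrasts in a fit of all 24 libraries. Intervals are 95% normal intervals from the SE and do not use the degrees of freedom of the test. The week 12 minus week 6 interval of miR-181c in tumors, 0.018 to 0.908, excludes 0 although its unadjusted p was 0.0553 in edgeR. Ratios (log2, 0.5 added to counts) were compared by exact permutation within weeks (160000 arrangements).

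Same-numbered tumor and normal libraries deviated together from their group means at weeks 6, 8 and 10 (r = 0.196 to 0.816, each pair over 0.1). At week 12, r was 0.0312, 0.424 and 0.0718. The pairing thus comes from the data and the shared numbers, as the labels name no shared litter or day. Same-numbered tumor and normal libraries also shared a sequencing lane at every week. The part of lane in these joint deviations was not tested. Counts of these libraries were simulated in a single draw per week (237 miRNAs, 30 picked at random for each size of change). There the weekly test recovered 76.7% to 93.3% of 4-fold and 13.3% to 33.3% of 2-fold changes. False calls were 2.63% to 10.8% of calls. Alternatives were DESeq2 1.42.0 size factors and Wald test, library sizes only, edgeR's classic exact test, the replicate block, lane as a covariate, no filter on low counts, 1 joint fit over all weeks, a minimum of 10 counts per library, a prior count of 2 for ratios, and each replicate left out in turn. In the fits of all libraries and in the ratio tests, a replicate of a genotype was left out at all weeks together.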

Additional observations from a re-analysis of the deposited data

How the results depend on the processing

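Every tumor-normal log2 fold change of the 4 members kept its sign under each alternative: of 144 values, 130 kept their side of the threshold and 14 no longer passed, and of 96 values without 1 replicate, 74 kept it and 22 no longer passed. At week 6 the number of members called was 1, in place of 3, with library sizes only, with edgeR's classic exact test and with no filter on low counts. At week 8 it was 1, in place of 3, with library sizes only. It was 2 at that week with DESeq2 size factors, with edgeR's classic exact test and with no filter on low counts. At week 10 it was 3, in place of 4, with the classic exact test and with the joint fit over all weeks. With 1 replicate left out, the members called numbered 0 to 3 (week 6), 1 to 2 (week 8), 3 to 4 (week 10) and 4 (week 12). With library sizes only, the log2 fold changes of all tested miRNAs shifted by a median of -0.14, -0.13, -0.02 and 0.16 at weeks 6, 8, 10 and 12. The cause of the other losses was not tested.

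The replicate block raised the number of miRNAs called at week 8 from 84 to 131, left 2 members called at week 6 and, except for miR-181a at that week, changed no other call of a member. At week 12, where only the pair of replicate 2 had an r over 0.1 (0.424), it gave 117 calls in place of 120. No paired analysis was possible because weeks within a genotype come from different mice for the changes from week 6 to week 12 within tumors or normal glands. With 1 replicate left out, between 78 and 150 miRNAs (week 6), 50 and 81 (week 8), 103 and 144 (week 10) and 74 and 120 (week 12) were called.

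Members changing from week 6 to week 12 in tumors numbered 1 (miR-181a) in place of 0 with DESeq2 size factors and 0 to 1 without 1 replicate. In normal glands they numbered 1 in place of 2 with DESeq2 size factors and with no filter, 3 in place of 2 with library sizes only, and 0 to 1 without 1 replicate. The tumor value of miR-181d, 0.03, turned to -9.62e-05 with library sizes only, -0.089 with at least 10 counts in every library and -0.15 with lane as a covariate, and ranged from -0.024 (without tumor replicate 3) to 0.22 with 1 replicate left out. The stage contrasts of the tumor-normal difference stayed at 0 members in all settings run.

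Without 1 replicate the log2 ratio differences ranged from -0.11 to 0.15 for miR-181a to miR-181b, -0.30 to 0.018 for miR-181a to miR-181c, 0.056 to 0.48 for miR-181a to miR-181d, -0.32 to -0.13 for miR-181b to miR-181c, 0.11 to 0.33 for miR-181b to miR-181d and 0.30 to 0.46 for miR-181c to miR-181d. The first turned negative without normal replicate 3 and the second positive without normal replicate 1. miR-181c to miR-181d passed in all of these, with adjusted p at most 0.0108 in exact permutation tests.

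With 3 mice per group, a member that did not pass is not shown to be level between groups. The recovery on simulated counts was over miRNAs picked at random and was not measured for the members. Each member had at least 548 counts in every library, and the effect of depth on the calls was not tested.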
